A study of Mus musculus with 2 samples.

Results

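The genes of the classical guidance families, which are the semaphorins with their plexin and neuropilin receptors, the ephrins with the Eph receptors, the Slits with the Robos, and the netrins with DCC, neogenin and the UNC5 receptors, were taken by the pattern of their symbols. The pattern matched 71 of the 19938 genes measured, and these 71 genes were read by 76 transcript clusters, the array's sets of probes for a gene or a stretch of it. The symbols Unc50 and Unc5cl were matched through their first letters and are not known as netrin receptors, so 69 genes belonged to the guidance families themselves. Ephb2 was not analysed here.

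The RNA came from BV2, an immortalized mouse microglial cell line, cultured in DMEM/F12, a medium richer in nutrients, or in DMEM, the standard medium. All cells were plated in DMEM/F12, and the medium was replaced on the next day by DMEM/F12 or DMEM for 1 d, so the cells of the DMEM array had been moved out of DMEM/F12. Serum and antibiotics were present in both media, and the labels name no genetic change or drug. Labelled cDNA made from the RNA of 1 sample was hybridized to 1 Affymetrix Mouse Gene 1.0 ST array for each medium. There are therefore no replicates, no p-value can be given, and each difference compares 2 arrays.

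Semaphorins, ephrins, Slits and netrins are secreted or membrane-bound cues that steer growing axons and migrating cells. Their receptors act on the actin cytoskeleton through small GTPases, mostly causing retraction or turning of a process. Several of them, among them SEMA4A, SEMA4D, neuropilins and plexins, are also known from immune cells, where they act in cell contact and migration.

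The differences of the guidance genes were small. At 1.5-fold, 1 of the 71 genes (Ntn5) was higher in DMEM/F12, where 0.928% of all genes were, and 0 were lower, where 0.727% of all genes were. At a log2 difference of at least 0.322 in size, 4 were higher (Ntn5, Sema4g, Robo4 and Nrp2), where 7.22% of all genes were, and 3 were lower (Epha7, Sema4a and Efna1), where 6.5% of all genes were. These counts lie near the shares of all genes. Ntn5, Sema4g and Robo4 were in DMEM below background, the 95th percentile of sensory receptor genes, and differed by 0.15, 0.25 and 0.28 with that value raised to it, and Epha7 was below background on both arrays. Of the 40 guidance genes above background on both arrays, 1 (Nrp2) was higher and 2 (Sema4a and Efna1) were lower by 0.322. Of all genes above background on at least 1 array, a wider filter, 6.04% were higher and 5.99% lower by that much. The share of all genes above background on both arrays was not computed. At least 1 log2 unit above background on both arrays lay 18 guidance genes, with 1 higher and 1 lower by 0.322. Of all genes, 9147 lay that far above it, with 440 higher and 524 lower. The median log2 difference (DMEM/F12 minus DMEM) of the 71 genes was 0.02, and that of all genes was 0.00. With bulk RNA, a change in the number of cells that express a gene and a change in its RNA per cell cannot be told apart.

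The directions are described by family, and no difference between families was tested. Of the plexins and neuropilins, 10 of 11 had a higher value in DMEM/F12, with a median difference of 0.12, and 1 of the 10, Plxnb3, had no settled direction. Of the Eph receptors, 10 of 13 had a lower value in DMEM/F12, with a median difference of -0.11, but 7 of the 13 were not above background, 4 of the lower ones among them. Once each value under background was set to it, the Eph median was 0.02. Over the 6 above background it was -0.15, with all 6 lower but none at least 1 log2 unit above background on both arrays. The semaphorins (10 higher, 9 lower, 1 equal, median 0.01) and the ephrins (3 higher, 3 lower, 2 equal, median 0.00) were divided. Among all genes, 47.2% were higher and 45.5% lower by any amount. Most of these differences were smaller than 0.23, the SD of the difference over all genes.

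**Figure D1:**
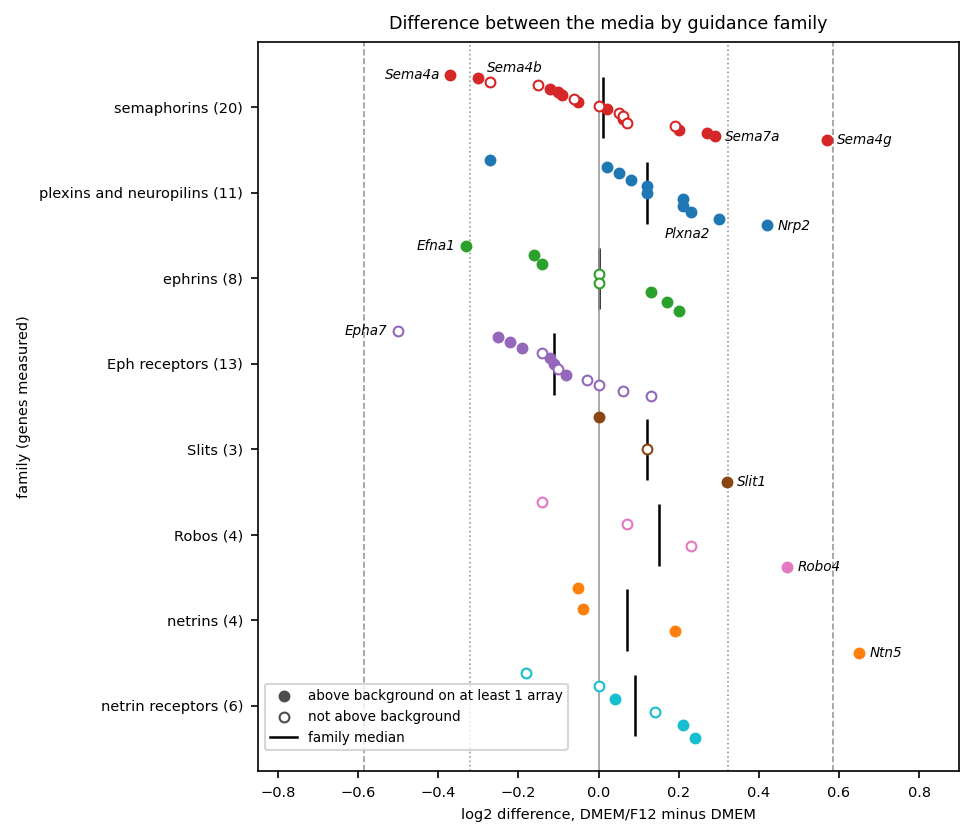
The x axis gives the log2 difference, DMEM/F12 minus DMEM, for the 69 genes of the guidance families (dots), and the y axis the family with its number of genes measured. Filled dots are genes above background on at least 1 array and open dots are not, black bars are family medians, dotted lines mark a log2 difference of 0.322 in size and dashed lines 1.5-fold; the plexins and neuropilins lie mostly to the right of 0 and the Eph receptors mostly to the left.

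Sensory receptor genes (olfactory, vomeronasal and taste, 1248 clusters), which are expressed mainly in sensory tissues, served as the measure of background. Their 95th percentile was 4.17 in DMEM/F12 and 4.15 in DMEM on the log2 scale. Of the 71 genes, 46 (64.8%) were above it on at least 1 array, where 66.3% of all genes were. The share differed among the families. All 11 plexins and neuropilins and all 4 netrins were above background, with 12 of 20 semaphorins, 6 of 8 ephrins, 6 of 13 Eph receptors, 2 of 3 Slits, 1 of 4 Robos and 3 of 6 netrin receptors. The 25 genes not above background, which include DCC (Dcc), neogenin (Neo1), Sema3a, Sema3e, Efnb2, Epha4 and Slit2, differed by -0.50 to 0.23, with 11 higher, 9 lower and 5 equal, and no order is read from them.

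**Figure D2:**
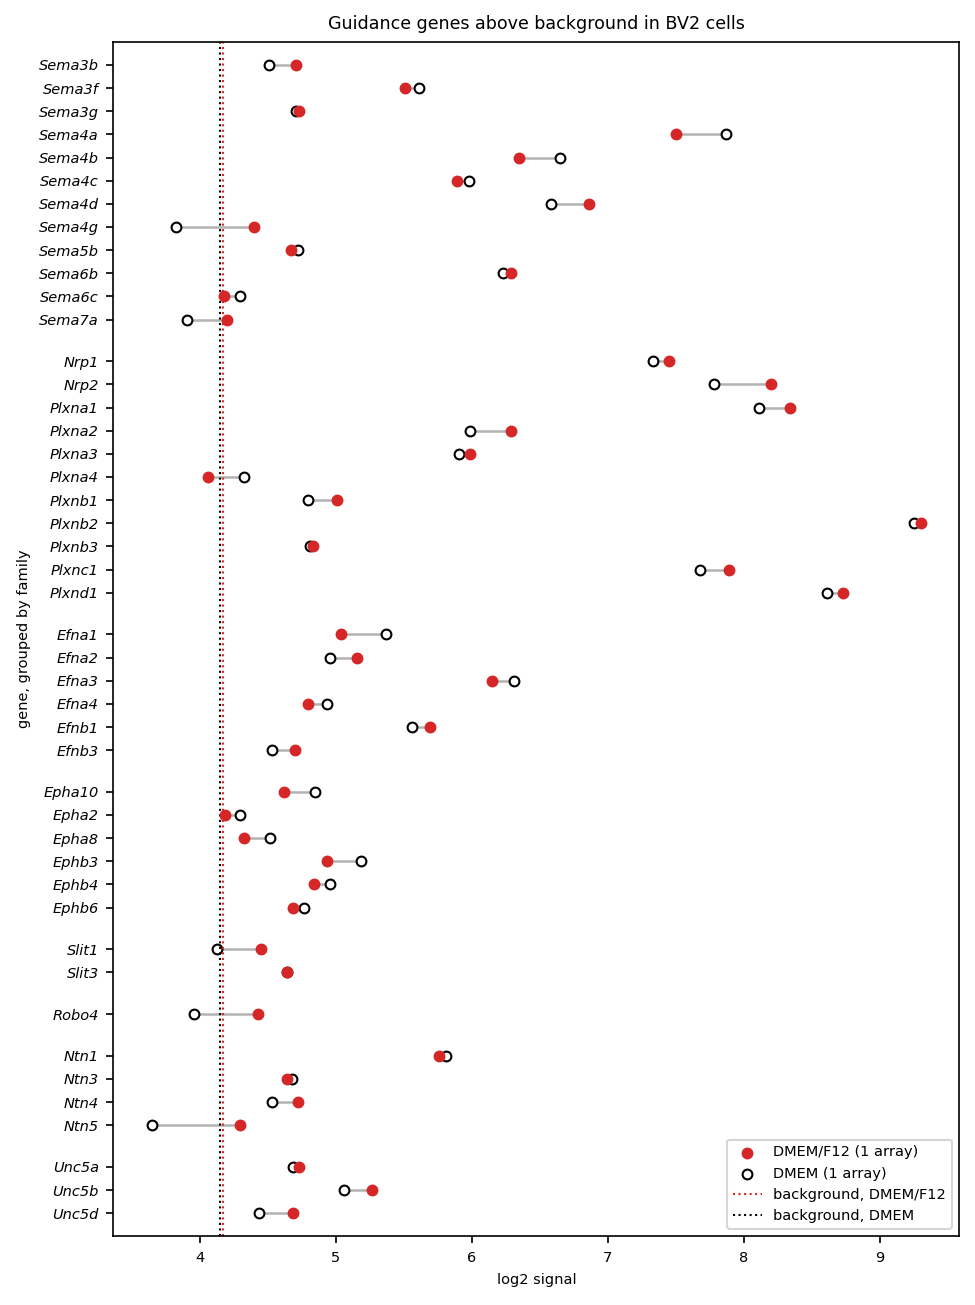
Log2 signal (x axis) of the 45 genes of the guidance families above background (y axis, grouped by family) on the DMEM/F12 array (red circles) and the DMEM array (open circles), joined by a gray line, with dotted lines at background. Sema4g, Sema7a, Slit1, Robo4 and Ntn5 were above background in DMEM/F12 and not in DMEM, and Plxna4 in DMEM and not in DMEM/F12.

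Plexins are the transmembrane receptors of semaphorins, and neuropilins are co-receptors that bind the secreted class 3 semaphorins and members of the VEGF family. Nrp2, whose protein binds SEMA3F and VEGF-C, had a log2 value of 8.20 in DMEM/F12 and 7.78 in DMEM (1.34-fold higher). Of the 13225 genes above background, 5.7% differed by as much in either direction. Nrp1, whose protein binds SEMA3A and VEGF-A, had 7.45 in DMEM/F12 and 7.33 in DMEM, a difference of 0.12.

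The plexin-A genes encode the usual signalling partners of neuropilins and also receptors of class 6 semaphorins. Plxna2 had 6.29 in DMEM/F12 and 5.99 in DMEM (1.23-fold higher), and Plxna1 had 8.34 in DMEM/F12 and 8.11 in DMEM (1.17-fold higher). Plxna3 had 5.99 in DMEM/F12 and 5.91 in DMEM. Plxna4 was the only lower gene of the group, with 4.06 in DMEM/F12, below background, and 4.33 in DMEM, and its difference of -0.27 was -0.16 with the DMEM/F12 value raised to background.

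The plexins B, C and D bind other classes of semaphorins. Plxnb1, which encodes the receptor of SEMA4D, had 5.01 in DMEM/F12 and 4.80 in DMEM, a difference of 0.21. Plxnc1, whose protein binds SEMA7A, also differed by 0.21, with 7.89 in DMEM/F12 and 7.68 in DMEM. Plxnd1, which encodes the receptor of SEMA3E, had 8.73 in DMEM/F12 and 8.61 in DMEM. Plxnb2, whose protein binds SEMA4C, had 9.30 in DMEM/F12 and 9.25 in DMEM, and Plxnb3 had 4.83 in DMEM/F12 and 4.81 in DMEM. The difference of Plxnb3 was 0.02, and it was 0.00 under some of the scalings between arrays tried, so it has no settled direction.

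The 8 plexin and neuropilin genes that lay at least 1 log2 unit above background on both arrays all had the higher value in DMEM/F12, with differences between 0.05 and 0.42. Of all genes that far above background, 46.6% were higher, and of all genes above background 48.5%. No test of the group against other genes was run.

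The promoters of the 2 genes of this group with the largest differences are shown for the sequence that lies next to their starts. Each is the 250 bases before the start of the gene in the RefSeq annotation of GRCm38.p6, on the plus strand, at chr1:62703067-62703316 for Nrp2 and chr1:194619579-194619828 for Plxna2, written 5′ to 3′, with capitals marking the GC box GGGCGG on either strand.
Nrp2: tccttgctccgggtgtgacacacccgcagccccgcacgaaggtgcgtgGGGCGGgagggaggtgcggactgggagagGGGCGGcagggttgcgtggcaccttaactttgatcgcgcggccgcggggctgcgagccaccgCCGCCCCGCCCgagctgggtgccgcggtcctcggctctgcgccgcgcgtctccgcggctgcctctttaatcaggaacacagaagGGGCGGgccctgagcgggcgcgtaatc
Plxna2: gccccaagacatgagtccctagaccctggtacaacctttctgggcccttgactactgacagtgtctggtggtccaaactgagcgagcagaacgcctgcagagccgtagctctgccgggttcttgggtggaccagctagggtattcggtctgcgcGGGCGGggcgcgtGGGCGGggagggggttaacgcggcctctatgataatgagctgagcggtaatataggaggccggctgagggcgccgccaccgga
The Nrp2 sequence holds 5 matches, of which 2 overlap, and the Plxna2 sequence holds 2. G and C made up 72.4% of the Nrp2 sequence and 62.8% of the Plxna2 sequence, and the shares below were not matched for this content. Of the 11 plexin and neuropilin genes, 9 had promoter sequences here, 10 in number. A GC box was found in 9 of these 10 sequences, from 8 genes, and in 32.7% of all 32851 promoter sequences of this length. The CCAAT box (CCAAT), the TATA box (TATAAA), a core of the sites of the macrophage factor PU.1 (GAGGAAGT) and the E-box bound by MYC (CACGTG), searched on both strands, were found in none of the 10 sequences of these 9 genes, and in 33.8%, 12.4%, 2.44% and 6.02% of all promoters. A match or its absence describes these letters only.

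Among the semaphorins, the class 4 genes, which encode transmembrane ligands, differed in both directions. Sema4a, whose protein is a co-stimulatory ligand in the immune system, had 7.50 in DMEM/F12 and 7.87 in DMEM (1.29-fold lower in DMEM/F12). Sema4b had 6.35 in DMEM/F12 and 6.65 in DMEM (1.23-fold lower), and Sema4c had 5.89 in DMEM/F12 and 5.98 in DMEM. Of the genes above background, 8.97% differed by as much as Sema4a and 15.5% by as much as Sema4b.

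Sema4d, which encodes the ligand CD100 of plexin-B1 and of CD72, was measured by 2 clusters that disagreed. Cluster 10409240 had 8.62 in DMEM/F12 and 8.00 in DMEM (1.54-fold higher in DMEM/F12), and 0.987% of all clusters with 1 symbol were higher by at least 1.5-fold. Cluster 10409236 had 5.09 in DMEM/F12 and 5.17 in DMEM, a difference of -0.08. The mean over both clusters was 6.86 in DMEM/F12 and 6.58 in DMEM, a difference of 0.27. Which part of the gene each cluster reads is not given in the annotation used here. Sema4g had 4.40 in DMEM/F12 and 3.83 in DMEM, where it was below background, and its difference of 0.57 was 0.25 with the DMEM value raised to background.

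The secreted class 3 semaphorins were mostly at background. Sema3b had 4.71 in DMEM/F12 and 4.51 in DMEM, Sema3f had 5.51 in DMEM/F12 and 5.61 in DMEM, and Sema3g had 4.73 in DMEM/F12 and 4.71 in DMEM, a difference of 0.02 that was 0.00 or negative under the 3 scalings between arrays tried. Sema3a, Sema3c, Sema3d and Sema3e were not above background on either array. Of the remaining classes, Sema7a, which encodes a ligand of plexin-C1 and of β1 integrins held in the membrane by a lipid anchor, had 4.20 in DMEM/F12 and 3.91 in DMEM, a difference of 0.29 that was 0.05 with the DMEM value raised to background. Sema5b, Sema6b and Sema6c, which encode transmembrane semaphorins, differed by -0.05, 0.06 and -0.12.

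Eph receptors are receptor tyrosine kinases that bind ephrins on neighbouring cells, so their signals need cell contact. All 6 Eph receptor genes above background were lower in DMEM/F12, where 47.4% of all genes above background were, by 0.08 to 0.25 on the log2 scale. None of them lay at least 1 log2 unit above background on both arrays, so this direction rests on genes near background. Ephb3 had 4.94 in DMEM/F12 and 5.19 in DMEM (1.19-fold lower in DMEM/F12), and 22.6% of the genes above background differed by as much. Epha10, whose protein lacks kinase activity, was measured by 2 clusters that ran the same way, with 4.69 in DMEM/F12 and 4.91 in DMEM for the first and 4.55 in DMEM/F12 and 4.78 in DMEM for the second. Epha8 had 4.33 in DMEM/F12 and 4.52 in DMEM.
The remaining differences were smaller. Ephb4, which encodes the receptor of ephrin-B2, had 4.84 in DMEM/F12 and 4.96 in DMEM, Epha2 had 4.19 in DMEM/F12 and 4.30 in DMEM, and Ephb6, whose protein also lacks kinase activity, had 4.69 in DMEM/F12 and 4.77 in DMEM. None of the 6 reached a difference of 0.322 in size. Of the 7 Eph receptor genes not above background, 4 were lower, among them Epha7 with 2.78 in DMEM/F12 and 3.28 in DMEM.

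The ephrins are held in the membrane by a lipid anchor (class A) or by a transmembrane segment (class B). Of class A, Efna1 had 5.04 in DMEM/F12 and 5.37 in DMEM (1.26-fold lower in DMEM/F12), where 5.99% of the genes above background were lower by at least 0.322 on the log2 scale. Efna3 had 6.15 in DMEM/F12 and 6.31 in DMEM, and Efna4 had 4.80 in DMEM/F12 and 4.94 in DMEM. These 3 lower genes follow each other on chromosome 3 with no other coding gene between them, and Efna2, on chromosome 10, was higher with 5.16 in DMEM/F12 and 4.96 in DMEM. Both class B genes above background were higher: Efnb1 had 5.69 in DMEM/F12 and 5.56 in DMEM, and Efnb3 had 4.70 in DMEM/F12 and 4.53 in DMEM.

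**Figure D3:**
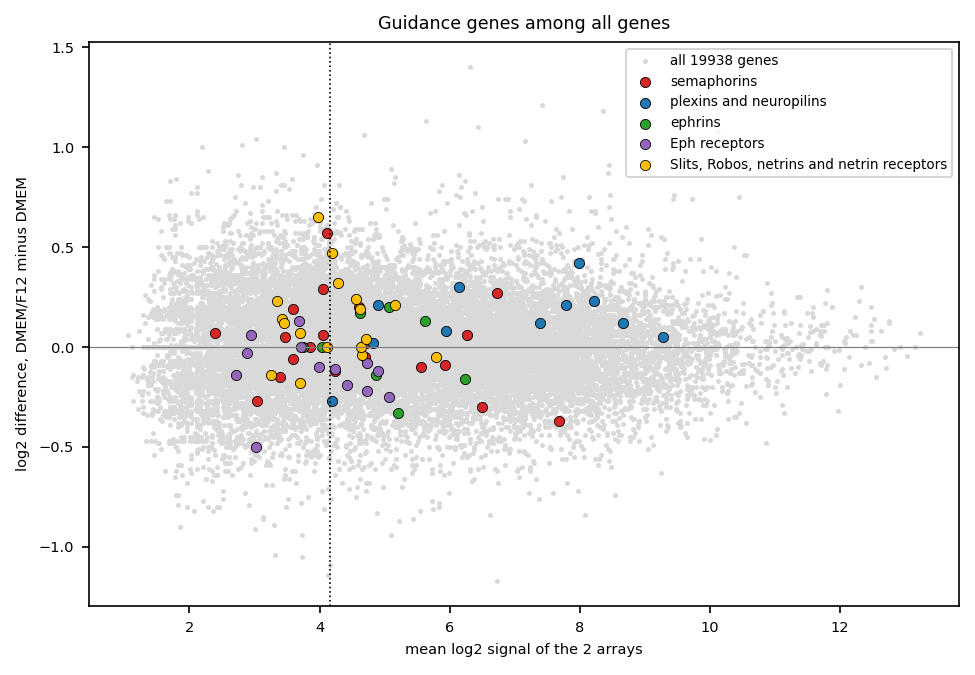
All 19938 genes (gray) are plotted by their mean log2 signal on the 2 arrays (x axis) and, on the y axis, by the difference in log2 signal (DMEM/F12 minus DMEM), with the guidance genes coloured by family and a dotted line at background. The guidance genes lie inside the cloud of all genes, and the larger differences of Slits, Robos and netrins lie near the background line.

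Netrins are secreted laminin-like cues that attract through DCC and repel through UNC5 receptors. Ntn5 had the largest difference of the 71 genes, with 4.30 in DMEM/F12 and 3.65 in DMEM (1.57-fold higher), but the DMEM value was below background and the difference of 0.65 was 0.15 with that value raised to background. Ntn4, which encodes a netrin of basement membranes, had 4.72 in DMEM/F12 and 4.53 in DMEM. Ntn1, the founding netrin of vertebrates, had 5.76 in DMEM/F12 and 5.81 in DMEM, and Ntn3 had 4.64 in DMEM/F12 and 4.68 in DMEM.
Of the netrin receptors, Unc5b had 5.27 in DMEM/F12 and 5.06 in DMEM, a difference of 0.21, and Unc5a had 4.73 in DMEM/F12 and 4.69 in DMEM. The 2 clusters of Unc5d disagreed. Cluster 10577996 had 4.55 in DMEM/F12 and 4.02 in DMEM, below background, and cluster 10577999, the brighter of the pair, had 4.83 in DMEM/F12 and 4.87 in DMEM. The mean over both differed by 0.24 and the brighter cluster by -0.04, so Unc5d has no settled direction. DCC and neogenin, the receptors of attraction, were not above background.

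Slits are secreted repellents that bind Robo receptors. Slit1 had 4.45 in DMEM/F12 and 4.13 in DMEM, just below background, a difference of 0.32, and Slit3 had 4.64 on both arrays. Robo4, known from endothelial cells, had 4.43 in DMEM/F12 and 3.96 in DMEM, below background, and its difference of 0.47 was 0.28 with the DMEM value raised to background. Robo1, Robo2 and Robo3 were not above background. Of the genes matched by their first letters only, Unc50, which encodes a Golgi membrane protein, had 6.96 in DMEM/F12 and 7.06 in DMEM, and Unc5cl was not above background.

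Genes that act with these families but were not chosen by the symbol pattern were described from 2 lists. Of 27 measured co-receptors, other ligands and shedding enzymes, 19 were above background, with 14 higher (73.7%) and 5 lower (26.3%) in DMEM/F12 and a median difference of 0.11, where 48.5% of all genes above background were higher and 47.4% lower. Of these 19, 1 (Flrt2) was higher by at least 0.322 on the log2 scale, where 6.04% of genes above background were, and 1 (L1cam) was lower, where 5.99% were. Flrt2, which encodes a ligand of UNC5 receptors, had 6.78 in DMEM/F12 and 6.28 in DMEM (1.41-fold higher). L1cam, whose protein is part of the SEMA3A receptor in neurons, had 4.75 in DMEM/F12 and 5.09 in DMEM (1.27-fold lower in DMEM/F12). Draxin, which encodes a secreted repellent that binds netrin and DCC, differed by 0.31 (5.70 in DMEM/F12 and 5.39 in DMEM), as did Sdc3, which encodes the heparan sulfate proteoglycan syndecan-3 (8.07 in DMEM/F12 and 7.76 in DMEM). The metalloprotease genes Adam10 and Adam17, whose products shed ephrins, semaphorins and other membrane proteins, differed by 0.22 and 0.20. They were picked after their values were seen.

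Of 56 measured genes of intracellular guidance signalling, 51 were above background, with 28 higher, 19 lower and 4 equal and a median of 0.03. Of all genes above background, 48.5% were higher and 47.4% lower. Ablim1, Grb10 and Kalrn, among the higher ones, had values above background in DMEM/F12 only (4.26, 4.30 and 4.24, with 4.05, 4.11 and 4.09 in DMEM). Among these 51, 6 were higher by at least 0.322 on the log2 scale, against the same 6.04% of genes above background, and 0 were lower, against 5.99%. Rras, which encodes the GTPase R-Ras that plexins inactivate, had 9.01 in DMEM/F12 and 8.49 in DMEM (1.43-fold higher). Dock1, which encodes an activator of Rac that acts below DCC, had 7.18 in DMEM/F12 and 6.67 in DMEM (1.42-fold higher). Srgap2, which encodes a GTPase-activating protein that binds Robo receptors, had 7.53 in DMEM/F12 and 7.09 in DMEM (1.36-fold higher). The other 3 were Rasa1 (0.42), Dapk1 (0.36) and Sos1 (0.34), which were named after their values were seen. The GTPase genes Rhoa, Rac1 and Cdc42, on which most of these receptors act, differed by 0.00, -0.02 and 0.00, and Cfl1, which encodes the actin-severing protein cofilin, by 0.03.

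**Figure D4:**
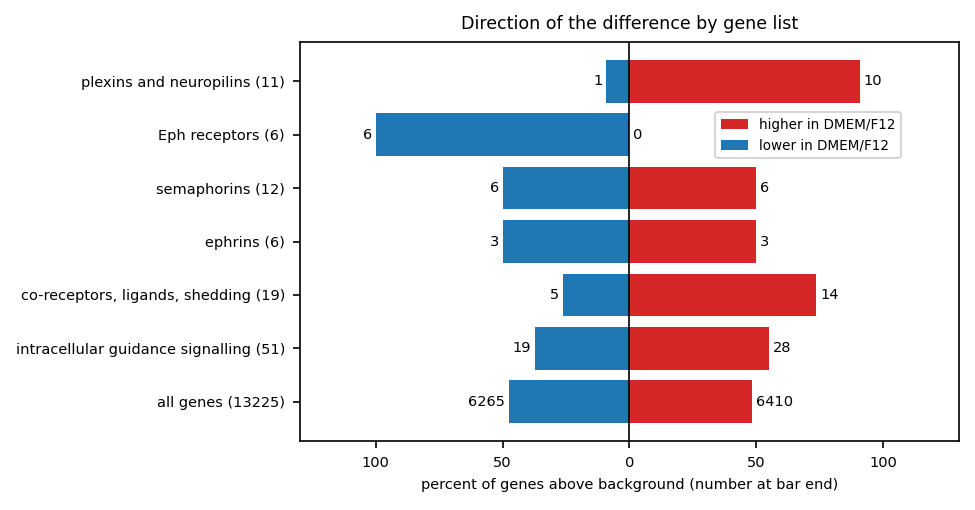
Percent of the genes above background with a higher (red, right) or lower (blue, left) value in DMEM/F12 than in DMEM (x axis), for guidance families, the 2 lists of associated genes and all genes (y axis, with the number above background), with the number of genes at each bar end. The plexins and neuropilins have 10 higher (1 of them, Plxnb3, with no settled direction) and 1 lower, and all genes 6410 higher and 6265 lower. The Eph receptors have 0 higher and 6 lower, all near background.

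As a check of the cells, 13 of 15 measured markers of microglia and macrophages were above background, and Aif1 and P2ry12 were not. Of all genes, 66.3% were above background, so being above it says little about a cell type. Of these 13 markers, 8 were higher and 5 lower in DMEM/F12, with a median difference of 0.04. Among all genes above background, 48.5% were higher and 47.4% lower. Tmem119, a marker of mature microglia, had 6.05 in DMEM/F12 and 6.71 in DMEM. Trem2 had 9.63 in DMEM/F12 and 9.23 in DMEM, and C1qa had 4.66 in DMEM/F12 and 4.22 in DMEM. No rule set beforehand chose these genes. Markers of other cells were above background for 1 of 6 in neurons, 1 of 5 in astrocytes, 4 of 5 in the oligodendrocyte lineage, 1 of 5 in endothelial cells and 3 of 5 in fibroblasts and pericytes, with differences of -0.35 to 0.17 among those above background. Both arrays were of the BV2 line, so these counts describe genes and do not show other cells in the culture. A link of these markers to the differences of the guidance genes was not tested.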

How the data were processed

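The authors made single-stranded cDNA from total RNA of BV2 cells, labelled its fragments with biotin, hybridized them to Affymetrix Mouse Gene 1.0 ST arrays and deposited 28944 log2 values per array, rounded to 2 decimals. The submitters' processing notes name Affymetrix Expression Console and, besides it, Transcriptome Analysis Console. Their versions, the way probes were summarized and arrays normalized, and the genome build were not given in the sources used here. A dependence of small differences on that normalization could therefore be checked only through the scalings below.

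Groups were taken from the submitters' labels (1 array of DMEM/F12, 1 array of DMEM). Only the 21789 clusters with exactly 1 symbol in the platform's annotation were named, and a gene took the mean log2 value of its clusters. All 71 guidance genes had an entry in RefSeq's GRCm38.p6 gene table, which gave chromosomes and neighbours. Each difference is DMEM/F12 minus DMEM, with no further scaling or filter, and no test was possible with 1 array per medium. The number of arrays limits the precision. Every guidance gene above background was to be described, with those at 1.5-fold or more among the others, and in each list of associated genes the 3 above background with the largest difference. The genes and lists were chosen with earlier results of these data known.

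The alternatives were median centring, quantile normalization, loess centring (span 0.3), values below background raised to it, the brightest cluster per gene, other background levels and thresholds, and only genes above background. Adding clusters with several symbols changed nothing, since 0 of them held a guidance gene. Python 3.11.15, numpy 2.4.6, pandas 2.3.3, statsmodels 0.14.6 and matplotlib 3.10.9 were used.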

Additional observations from a re-analysis of the deposited data

How the results depend on the processing

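No paired analysis was possible because there was only 1 array of each medium. No shift above 0.1 in a log2 difference and no ratio above 1.5 between counts was found under quantile normalization, loess centring or median centring, in any count, median or single-gene difference computed. Median and loess centring could not have shifted a difference by that much. The median over clusters was 4.77 in DMEM/F12 and 4.75 in DMEM, and the loess curve was at most 0.0475 in size. The number of guidance genes above background, 46, became 26 with background at the 99th percentile of the receptor clusters and 29 with it at the median of all clusters. The number of genes higher by the threshold, 1 at 1.5-fold, was 4 at a log2 difference of 0.322, 0 at 2-fold, 2 with the brightest cluster per gene, where Sema4d differed by 0.62 in place of 0.27 and Unc5d turned to -0.04 in place of 0.24, and 0 once values under background were set to it. With that setting the median difference became 0.02 for the Eph receptors and 0.02 for the Robos, because a gene below background on both arrays then takes the 0.02 between the background levels. Of the 46 genes above background, those that moved by over 0.1 once values under background were set to it were Ntn5 (0.15), Robo4 (0.28), Sema4g (0.25), Sema7a (0.05) and Plxna4 (-0.16). Each was above background on 1 array only. This setting raises only the value of the other array, so it all but fixes their direction and cannot test it. The number of lower genes, 0 at 1.5-fold, was 3 at 0.322. With only genes above background, the median was 0.47 for the Robos and 0.21 for the netrin receptors. The 0.47 is Robo4 alone, which passed this filter only through DMEM/F12, where it is high, and became 0.28 as given above.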

Other observations

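Guidance genes that follow each other on a chromosome, with no other coding gene between them in the RefSeq genes of GRCm38.p6, did not all run the same way. Efna1, Efna3 and Efna4 on chromosome 3 differed by -0.33, -0.16 and -0.14, and Robo4 and Robo3 on chromosome 9 by 0.47 and 0.23, with Robo3 not above background. Sema3d and Sema3a on chromosome 5 differed by -0.27 and 0.07, and Robo1 and Robo2 on chromosome 16 by 0.07 and -0.14, and none of these 4 was above background.

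Of the 5 guidance genes with several clusters, Sema4d and Unc5d had clusters of opposite sign. The clusters of Epha10 ran the same way, Ephb1 was not above background, and the 2 clusters of Sema6b had identical values (6.29 in DMEM/F12 and 6.23 in DMEM).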
